A study of Drosophila melanogaster with 64 samples.

Results

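The 8 receptors for octopamine and tyramine (Oamb, Octalpha2R, Octbeta1R, Octbeta2R, Octbeta3R, Oct-TyrR, TyrR and TyrRII) were followed through the tissues of the Drosophila melanogaster female reproductive tract (FRT) before and after mating. They were taken from a table of 17752 genes as the entries whose FlyBase identifier carries 1 of these symbols, and all 8 were found. RNA sequencing of pooled dissected tissue gave unmated groups and groups taken 6 h and 24 h after mating in 6 tissues. The tissues were the bursa copulatrix (4 unmated libraries, 4 at 6 h and 4 at 24 h), oviduct (3, 2 and 3), seminal receptacle (3, 4 and 3), spermathecae (4, 4 and 4), parovaria (4, 3 and 4) and the fat body that lies along the tract (4, 3 and 2). Another 2 libraries held whole unmated females from which the FRT had been removed, so that they kept the ovaries. Every fly was of the wild-type laboratory strain LHM, 3 to 8 days old, and carried no transgene. Each library is a pool of many females, so its value is an average over animals and over all cell types of the piece that was dissected. In such bulk samples fewer cells of a type and less RNA per cell cannot be told apart.

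Octopamine is the insect counterpart of noradrenaline. It is made from tyrosine by way of tyramine, which is itself a transmitter. In flies, octopaminergic neurons of the abdominal ganglion reach the ovary and the tract, where octopamine contracts the ovarian sheath, relaxes the oviduct and is needed for ovulation and for normal handling of stored sperm. The receptors are G-protein-coupled. Oamb, the alpha-type receptor, raises intracellular calcium and is known to be required in the oviduct epithelium for ovulation. Octalpha2R is a second alpha-type receptor. The beta-type receptors Octbeta1R, Octbeta2R and Octbeta3R raise cAMP, and Octbeta2R is also known to be required in the oviduct for egg laying. Oct-TyrR responds to both amines, TyrR prefers tyramine and TyrRII responds to several amines.

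The 8 genes are spread over chromosome arms 3L and 3R of the Release 6 genome, and all are protein-coding. On 3R, Oamb (FBgn0024944) lies at 20689018 to 20714577 on the minus strand and has 8 merged exons, and Octalpha2R (FBgn0038653) lies at 18799280 to 18849224 on the minus strand with 3. Octbeta1R (FBgn0038980) is on the plus strand at 22497215 to 22520078 with 8 merged exons. Octbeta3R (FBgn0250910, 12511570 to 12548229, 10 merged exons) and Octbeta2R (FBgn0038063, 12550625 to 12595725, 9 merged exons) are neighbours on the minus strand, and so are TyrRII (FBgn0038541, 17736611 to 17747470, plus strand, 7 merged exons) and TyrR (FBgn0038542, 17750129 to 17763188, minus strand, 7 merged exons). Oct-TyrR (FBgn0004514) is the only member on 3L, at 22035003 to 22065279 on the plus strand with 4 merged exons. The exons of Octbeta2R overlap those of the microRNA gene mir-284 by 100 bases on the same strand, and no other member shares exon sequence with an annotated gene.

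Library totals ranged between 12177864 and 26860149 counts, with a median of 24545411.5, and the 2 lowest were libraries of the seminal receptacle at 24 h. Run 1 of the sequencer gave 26 of the 64 libraries and run 2 gave 38. Whole females, oviducts at 6 h and fat bodies at 24 h have run 2 libraries alone. The run moved with the receptors themselves. Oamb had a higher mean in the run 1 libraries than in the run 2 libraries of the same group in 15 of the 16 groups with both runs, with a median ratio of 1.57 and a range of 0.59 to 2.59. Octbeta2R went the other way and was higher in run 1 in 2 of those 16 groups, with a median ratio of 0.616. Values are therefore given below with their run. Where all libraries of a group lay above or below those of another, the share of all genes that did the same was not computed. Such statements describe the libraries only. One library stood apart in the results on the oviduct, the run 1 library at 24 h. The oviduct tests of Oamb at 6 h and Octalpha2R at 24 h are given with and without it. The receptor shares of the oviduct at 24 h and the correlations over group means include it. Muscle markers summed to 18700 to 33000 CPM in the 4 unmated bursa libraries and 14400 to 17100 CPM in the 3 of the oviduct, against 281 to 343 CPM in the whole female. Germline markers summed to 390 to 631 CPM in the whole female, and fat body markers to 12800 to 22400 CPM in the unmated fat body.

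Levels are CPM, read counts relative to library size, scaled between libraries by the TMM factors of edgeR, a trimmed mean of log ratios (0.321 to 2.92), and levels of different genes are compared only per kilobase of merged exons. A gene was called expressed in a group when it exceeded 2 CPM before this scaling in at least 2 of its libraries. Oamb was expressed in 16 of the 19 groups, Octbeta2R in 13, Octalpha2R in 6 (the oviduct and the seminal receptacle at each time), Octbeta1R in 3 (the bursa at each time) and TyrR in 1, the bursa at 6 h. Octbeta3R, Oct-TyrR and TyrRII were expressed in no group. Their highest counts in any library were 17, 28 and 18, so that only their presence or absence at this depth can be described.

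Per kilobase, Oamb was the leading receptor of every unmated tract tissue except the bursa, where Octbeta2R led. In unmated females it measured 122, 229 and 186 CPM in the 3 oviduct libraries (run 1 first), a mean of 179 ± 53.6 (SD, n = 3). The 4 parovaria libraries held 103 and 106 CPM in run 1 and 82.9 and 93.9 CPM in run 2, a mean of 96.4 ± 10.3 (SD, n = 4). Every oviduct library was thus above every parovaria library, and both tissues were well above the rest. The seminal receptacle had 32.1 CPM in run 1 and 21.9 and 30.2 CPM in run 2, and the bursa had 28.3 and 28.5 CPM in run 1 and 21.04 and 30.3 CPM in run 2. The spermathecae gave 12.2 and 15.6 CPM in run 1 and 12.8 and 11.2 CPM in run 2. The whole female held 5.43 and 5.40 CPM, and the fat body was close to nothing, with 0 to 0.911 CPM and 27 counts over 4 libraries.

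In one quasi-likelihood fit of all unmated libraries (edgeR, Benjamini-Hochberg adjusted p ≤ 0.05), 20 of the 21 pairs of groups differed for Oamb. The oviduct was above the parovaria by 0.91 on the log2 scale (SE 0.27, adjusted p = 0.00843), and the parovaria were above the seminal receptacle by 1.80 (SE 0.28, adjusted p = 2.59e-05). The seminal receptacle and the bursa were the neighbours that did not differ beyond their spread, at 0.03 (SE 0.27, adjusted p = 0.963). The bursa was above the spermathecae by 1.08 (SE 0.25, adjusted p = 0.00106) and the spermathecae above the whole female by 1.21 (SE 0.33, adjusted p = 0.00246), although the order of this last pair turned round when the TMM factors were left out. Of all pairs of groups over all genes tested, 57.6% were called in this fit, so a called pair is common, and what the receptors add is their order.

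**Figure D1:**
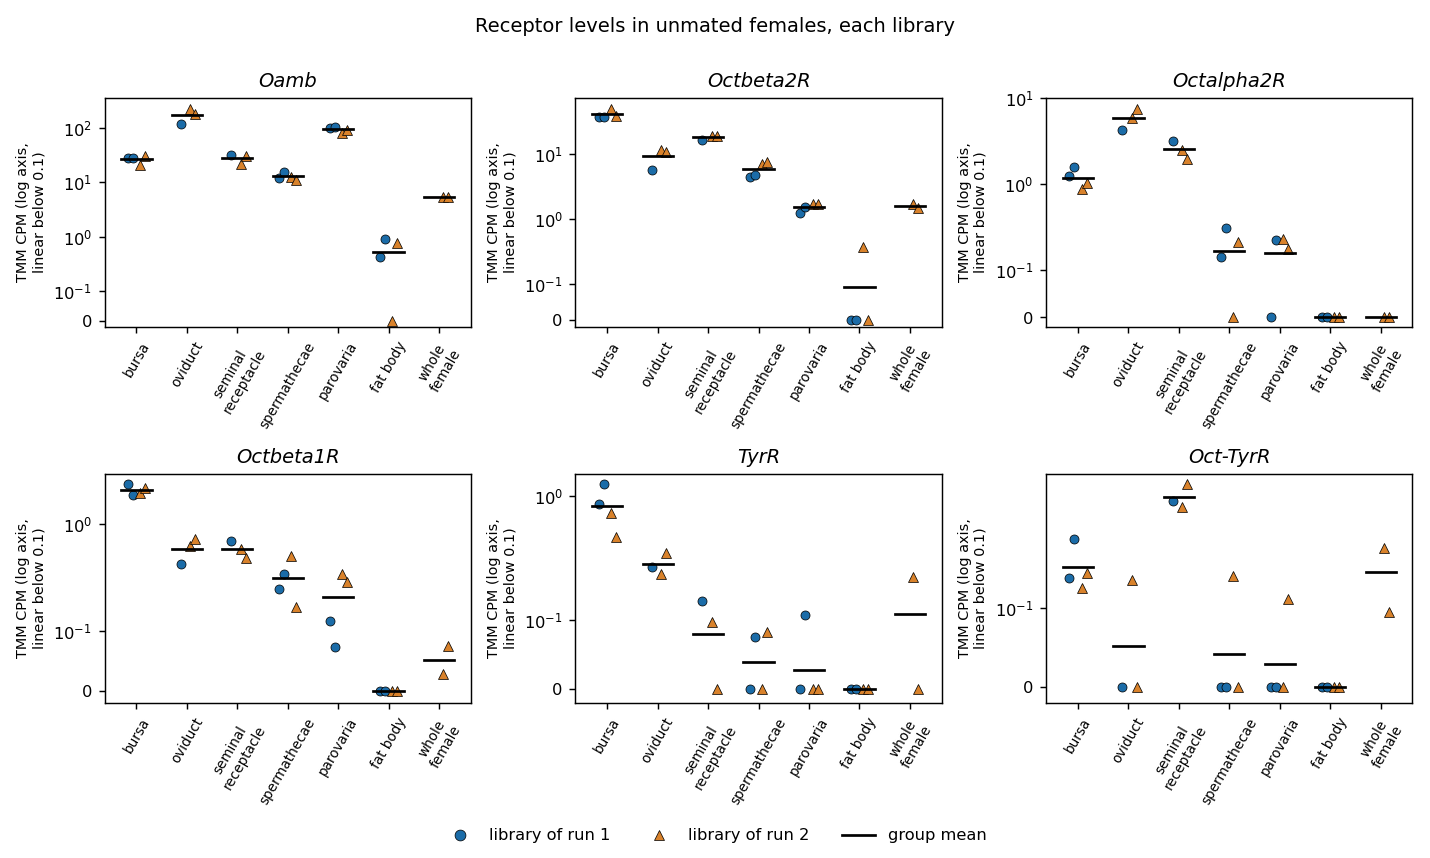
Levels of 6 receptors in unmated groups, 1 panel per receptor, in CPM scaled by TMM on a log axis that is linear below 0.1. Circles are run 1 libraries, triangles are run 2 libraries and the black line is the group mean. Oamb was highest in the oviduct (mean 179 CPM) and the parovaria (96.4 CPM), Octbeta2R in the bursa (41.5 CPM) and Octalpha2R in the oviduct (5.88 CPM).

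Octalpha2R had a narrower distribution. It measured 4.27 CPM in run 1 and 5.81 and 7.56 CPM in run 2 in the unmated oviduct, and 3.16 CPM in run 1 and 2.46 and 1.98 CPM in run 2 in the unmated seminal receptacle. The unmated bursa had 1.23 and 1.58 CPM in run 1 and 0.872 and 1.03 CPM in run 2. The oviduct libraries were all above those of the seminal receptacle, yet the fit did not separate them (log2 difference 1.24, SE 0.64, adjusted p = 0.187), nor the seminal receptacle from the bursa (1.08, SE 0.59, adjusted p = 0.195). The bursa was above the spermathecae by 2.83 (SE 0.65, adjusted p = 0.00128). In the spermathecae and parovaria no library at any time exceeded 0.452 CPM, and in the fat body and the whole female no library held a single count. On the TMM scale, and against the limit that 3 counts over the group would set, the unmated oviduct was at least 243-fold higher than the whole female and the seminal receptacle at least 105-fold higher. The same limit gave at least 92.4-fold and at least 39.8-fold over the unmated fat body. These bounds depend on the TMM factors, which were 2.92 and 2.14 for the whole-female libraries. Octalpha2R passed the filter on low values through the oviduct and seminal receptacle alone, so their place above the rest was set by the filter.

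Octbeta2R had its highest level in the bursa. The unmated bursa held 38.2 and 38.3 CPM in run 1 and 50.6 and 39.2 CPM in run 2, a mean of 41.5 ± 6.03 (SD, n = 4). The seminal receptacle followed with 16.7 CPM in run 1 and 19.4 and 19.2 CPM in run 2, then the oviduct with 5.77 CPM in run 1 and 11.6 and 10.9 CPM in run 2. These 3 tissues did not overlap one another. The bursa was above the seminal receptacle by 1.19 (SE 0.31, adjusted p = 0.00569), and the seminal receptacle above the oviduct by 0.94 (SE 0.33, adjusted p = 0.0445). The oviduct and the spermathecae (4.39 and 4.72 CPM in run 1, 7.08 and 7.55 CPM in run 2) were neighbours that the fit did not separate (0.68, SE 0.31, adjusted p = 0.0692). The parovaria stood at 1.25 to 1.73 CPM beside 1.71 and 1.46 CPM in the whole female, which they did not differ from (adjusted p = 0.852). In the unmated fat body Octbeta2R had 3 counts in 1 of 4 libraries.

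Octbeta1R was at a much lower level and highest in the bursa as well. The unmated bursa held 2.35 and 1.89 CPM in run 1 and 1.95 and 2.18 CPM in run 2, a mean of 2.09 ± 0.211 (SD, n = 4). The unmated oviduct held 0.425 CPM in run 1 and 0.630 and 0.722 CPM in run 2, and the seminal receptacle 0.694 CPM in run 1 and 0.582 and 0.481 CPM in run 2. Octbeta1R passed the filter on low values through the bursa alone, so its place at the top was set by the filter. The fitted difference of bursa over oviduct was 1.81 (SE 0.49, adjusted p = 0.0115), and no pair of neighbours from the oviduct down to the parovaria was separated (adjusted p = 0.157 to 1.0). The whole female had 2 and 4 counts and the fat body had none, so the bursa was at least 32.8-fold higher than the fat body. Octbeta3R, which in larvae acts in the gland that makes ecdysone, had 3 counts in each unmated bursa library, 1 to 3 counts in 1 library each of the unmated oviduct and seminal receptacle and of the seminal receptacle at 6 h, and 17 and 6 counts in the whole female. It had no count in any library of the spermathecae, parovaria or fat body.

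Among the tyramine receptors, TyrR was highest in the bursa, with 0.873 and 1.25 CPM in run 1 and 0.733 and 0.471 CPM in run 2 in unmated females. The unmated oviduct had 0.236 to 0.346 CPM, and the other unmated tract tissues did not exceed 0.144 CPM. Oct-TyrR was found mainly in the seminal receptacle. Its 3 unmated libraries held 0.575, 0.517 and 0.748 CPM, against 0.140 to 0.305 CPM in the unmated bursa and 0.266 and 0.0946 CPM in the whole female, and all 3 had more than any library of those groups. This held on the TMM scale alone for the whole female. Before the scaling its higher library, at 0.777 CPM, lay above the lowest of the seminal receptacle, at 0.678 CPM. TyrRII had 0.140 to 0.499 CPM in the unmated bursa and 0.105 to 0.268 CPM in the unmated oviduct. It had no count in the spermathecae at any time.

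Of the 10 pairs of tract tissues, 9 differed for Oamb, 7 for Octalpha2R, 6 for Octbeta1R and 9 for Octbeta2R in the fit of unmated libraries, where over all genes 39.1% of such pairs were called. For Octalpha2R, which passed the filter through the oviduct and the seminal receptacle alone, and for Octbeta1R, which passed through the bursa alone, these counts cannot be read against that share. TyrR, Oct-TyrR, TyrRII and Octbeta3R did not pass the filter of this fit.

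Per kilobase of exon, the make-up of the receptor set differed from tissue to tissue. Oamb was 94.0% of the summed receptor level in the unmated oviduct and 98.4% in the unmated parovaria, 72.6% in the spermathecae and 62.7% in seminal receptacles. In the unmated bursa Oamb and Octbeta2R were nearly level, at 43.6% and 49.3%. In unmated females the sum itself was 34.4 CPM per kilobase for the oviduct, 17.7 for the parovaria, 11.2 for the bursa, 8.08 for the seminal receptacle and 3.22 for the spermathecae, against 1.32 for the whole female. In the whole female Oct-TyrR was 3.72% and Octbeta3R 2.19% of the sum, against 2.06% and 0.066% in the unmated seminal receptacle, although the level of Oct-TyrR was higher in the seminal receptacle. At 6 h the bursa had 21.7% Oamb, 62.8% Octbeta2R, 6.39% Octbeta1R and 5.01% TyrR, with a sum of 6.29 CPM per kilobase.

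**Figure D2:**
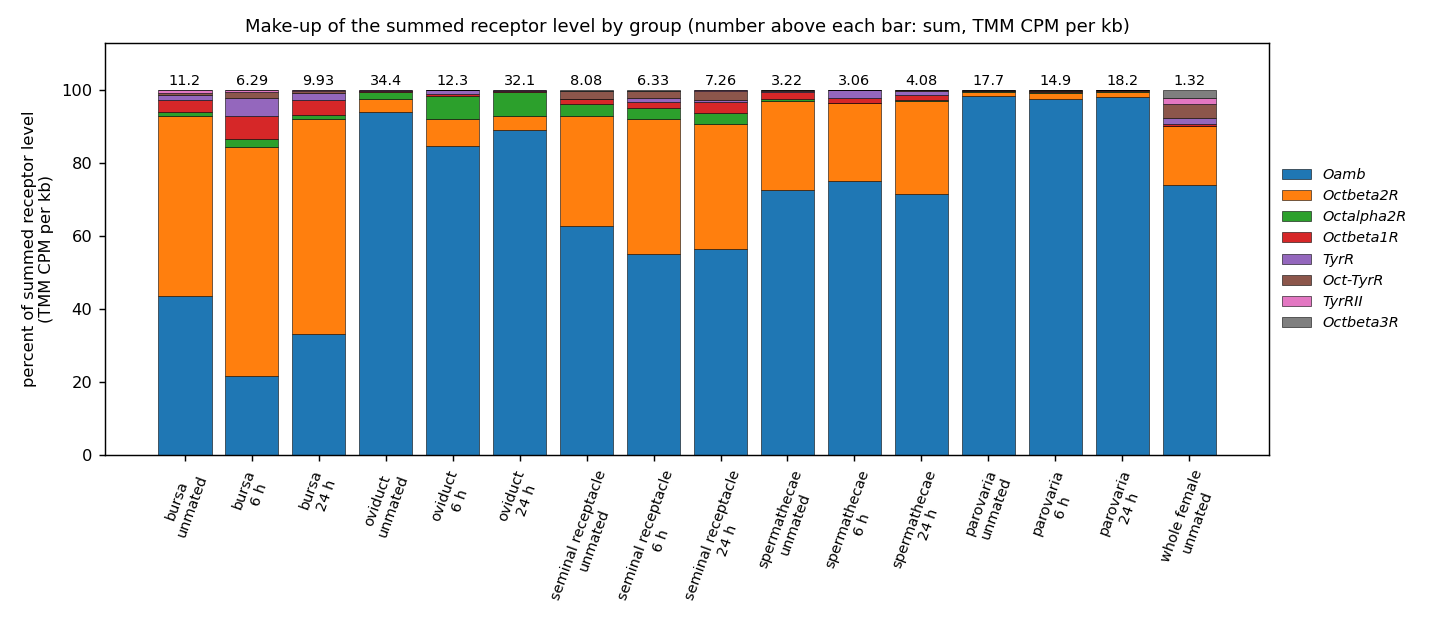
Share of each receptor in the summed receptor level (percent of CPM per kilobase, stacked bars) in the tract groups at each time and in the whole female, with the sum in CPM per kilobase above each bar. Oamb made up 94.0% of the sum of 34.4 in the unmated oviduct and 98.4% in the unmated parovaria, while Octbeta2R made up 49.3% in the unmated bursa and 62.8% in the bursa at 6 h.

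The tract divides into tissues with a mainly epithelial lining (bursa, oviduct and seminal receptacle) and glandular tissues (spermathecae and parovaria). The comparison of epithelial with glandular tissues in unmated females called Octalpha2R, Octbeta2R, Octbeta1R and Oamb higher in the epithelial tissues (edgeR, Benjamini-Hochberg adjusted p ≤ 0.05). Octalpha2R and Octbeta1R had passed the filter on low values through epithelial groups alone, so their direction was set by the filter, while Oamb and Octbeta2R had passed it in both kinds of tissue. In this comparison 32.8% of 9392 genes were called higher and 27.8% lower, with a median log2 difference of 0.06. Octalpha2R was higher by 4.0 (SE 0.47, adjusted p = 9.15e-07), Octbeta2R by 2.68 (SE 0.21, adjusted p = 6.14e-10) and Octbeta1R by 1.83 (SE 0.33, adjusted p = 0.000101). For Oamb the difference was 0.55 (SE 0.17, adjusted p = 0.00825), with the parovaria above the bursa and the seminal receptacle, and in run 2 libraries alone it was 0.61 (SE 0.24, adjusted p = 0.0545). Markers of other cell types also differed by this division, in both directions. All 12 muscle markers were higher in the epithelial tissues (median 3.67), as were 5 of 5 haemocyte markers (median 3.67) and 5 of 7 tested neuronal markers, with the other 2 lower. Fat body markers lay the other way. They summed to 649 to 805 CPM in the unmated bursa, 1140 to 1230 CPM in the oviduct and 1200 to 1820 CPM in the seminal receptacle. The spermathecae held 1470 to 2160 CPM of them and the parovaria 2340 to 3230 CPM. The part of all these markers in the receptor difference was not tested.

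The comparison of each unmated tissue with the whole female asked which tissues are enriched for a receptor relative to the rest of the body. The study's methods state this cutoff with a Bonferroni correction, and its results state it as a false discovery rate. The Benjamini-Hochberg counts further below correspond to the latter. With the threshold of the methods (Bonferroni-adjusted p ≤ 0.001 and a log2FC of at least 2), 1 of 15 receptor and tissue pairs was called, where 1.51% of all gene and tissue pairs were called. It was Oamb in the parovaria, with 103, 106, 82.9 and 93.9 CPM against 5.43 and 5.40 CPM in the whole female (log2FC 4.23, SE 0.21, Bonferroni-adjusted p = 0.000678; 1.69% of genes called in the parovaria). Leaving out any 1 of the 6 libraries left the adjusted p between 0.00448 and 0.00847, above the threshold each time. Octbeta2R in the bursa lay just outside, with a log2FC of 4.76 (SE 0.25) and a Bonferroni-adjusted p of 0.00111. Oamb in the oviduct had a larger difference with a wider spread, at 5.03 (SE 0.35, Bonferroni-adjusted p = 0.124).

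With a Benjamini-Hochberg adjustment and the same limits, 9 of the 15 pairs were called, all higher in the tissue, against 27.2% of all gene and tissue pairs. Besides those above they included Oamb in the bursa (log2FC 2.38, SE 0.24, adjusted p = 6.53e-05) and seminal receptacle (2.39, SE 0.31, adjusted p = 0.000489), Octalpha2R in the oviduct and seminal receptacle, Octbeta2R in the seminal receptacle (3.55, SE 0.32, adjusted p = 0.000127) and Octbeta1R in the bursa, for which the whole female held 6 counts. Octalpha2R and Octbeta1R passed the filter on low values through the tissue alone, so the direction of these 3 pairs was set by the filter. Octbeta2R in the parovaria was level with the whole female at 0.03. All of these values depend on the scaling. Without TMM factors the log2FC of Oamb dropped by 0.68 for oviducts, by 0.96 for bursae, by 1.37 for spermathecae and by 1.65 for parovaria. The Oamb difference for the spermathecae was 1.34 (SE 0.21) with TMM factors and -0.04 without them, and that of Octbeta2R for the parovaria was -1.67 without them.

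The comparison of time points asked whether a receptor's transcript level in a tissue changed after mating. Altogether 13 receptor and tissue pairs passed the filter on low values in at least 1 time point: Oamb in the 5 tract tissues, Octbeta2R in the bursa, oviduct, seminal receptacle and spermathecae, Octalpha2R in the oviduct and seminal receptacle, and Octbeta1R and TyrR in the bursa. At a Bonferroni-adjusted p ≤ 0.01 (edgeR's quasi-likelihood test in each tissue), 0 of the 13 were called at 6 h against unmated, 0 at 24 h against unmated and 0 at 24 h against 6 h. Over all genes and tissues 0.279%, 0.0359% and 0.157% were called in these 3 comparisons. The cutoff is that of the study, whose methods name edgeR but not which of its tests was used. The study reports many more changed genes against unmated, at both times, than the quasi-likelihood test called. The lack of receptor calls therefore holds for this stricter test and cannot be read as the outcome of the study's own test. With an unadjusted p under 0.05 there were 3, 1 and 3 of 13. With a Benjamini-Hochberg adjusted p ≤ 0.01 there were 1, 0 and 0, and DESeq2 with a Bonferroni adjustment also gave 1, 0 and 0.

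The receptor called by both of those alternatives was Oamb in the bursa. At 6 h it measured 12.1 and 8.48 CPM in run 1 and 4.56 and 5.02 CPM in run 2, against 28.3 and 28.5 CPM in run 1 and 21.04 and 30.3 CPM in run 2 in unmated females. All 4 libraries at 6 h were below all 4 unmated ones. The level at 6 h was 0.277 times the unmated level (log2FC -1.85, SE 0.31, edgeR Bonferroni-adjusted p = 0.559, Benjamini-Hochberg adjusted p = 0.00138). In this tissue and comparison 1.15% of 7983 genes were called by Bonferroni and 12.1% by Benjamini-Hochberg, so the receptor's call is of a common kind. The difference was present in each run, at -1.47 in run 1 and -2.42 in run 2. With the run as a covariate the log2FC was -1.94 (SE 0.23) with a Bonferroni-adjusted p of 0.0247 and a Benjamini-Hochberg adjusted p of 9.75e-05, in a fit that called 22.5% of genes by the latter adjustment. Leaving out each of the 12 bursa libraries kept the log2FC between -2.16 and -1.69 and the Benjamini-Hochberg adjusted p between 0.000552 and 0.0054.

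At 24 h Oamb in the bursa stood between the other times, with 24.1 and 20.7 CPM in run 1 and 10.9 and 17.6 CPM in run 2. These libraries overlapped the unmated ones (log2FC -0.59, SE 0.30, Benjamini-Hochberg adjusted p = 0.725). Against 6 h the difference was 1.26 (SE 0.31, 2.40-fold, adjusted p = 0.0176), and the lowest library at 24 h, from run 2, lay below the highest at 6 h, from run 1. With the run as a covariate this difference was 1.30 (SE 0.23, edgeR Benjamini-Hochberg adjusted p = 0.00186), in a fit that called 11.8% of genes by that adjustment. With the replicate number as a block it was 1.29 (SE 0.20, edgeR Benjamini-Hochberg adjusted p = 0.00151), and the Bonferroni-adjusted p was 0.526.

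Markers of other cells also differed between bursa groups. Neuronal markers summed to 10.4 to 25.9 CPM at 6 h and 28.2 to 35.1 CPM in unmated females, with VGlut at 0 in every library. Among them Syn went the other way, with means of 3.01 CPM at 6 h and 1.43 CPM unmated, and elav was level at 5.85 and 5.92 CPM. Glial markers summed to 228 to 438 CPM at 6 h and 742 to 798 CPM unmated, a sum made mostly of nrv2 (320 CPM on average at 6 h and 730 CPM unmated), while Eaat1 averaged 21.7 CPM at 6 h and 16.3 CPM unmated and wrapper was at 0. Haemocyte markers summed to 12.3 to 27.7 CPM at 6 h and 57.5 to 61.6 CPM unmated. Most of that sum was Ppn (12.4 CPM on average at 6 h and 42.3 CPM unmated), while He averaged 0.421 CPM at 6 h and 0.367 CPM unmated. Muscle markers summed to 30200 to 36200 CPM at 6 h and 18700 to 33000 CPM unmated, but their members were divided, with a median log2FC of -0.09. Mp20 averaged 8360 CPM at 6 h and 3770 CPM unmated, while Mhc averaged 3240 CPM at 6 h and 4040 CPM unmated. The first 3 lists were thus lower in each 6 h library than in each unmated one, but no tested member of them (7 of 12 neuronal, 4 of 5 glial and 3 of 5 haemocyte genes) was called by Bonferroni. By the Benjamini-Hochberg rule that called Oamb, 2 of the 7 neuronal genes were lower at 6 h (brp by -2.32 and nSyb by -1.99), as were 2 of the 3 haemocyte genes (Hml by -1.85 and Ppn by -1.79) and 1 of the 4 glial genes (nrv2 by -1.19). With means of 2.04 CPM unmated and 0.418 CPM at 6 h, brp was too low at 6 h to pass the filter there. Its direction was thus set by the filter. The part of these markers in the Oamb difference was not tested.

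In the oviduct Oamb measured 64.5 and 51.0 CPM at 6 h, both in run 2, against 122 CPM in run 1 and 229 and 186 CPM in run 2 in unmated females. Both libraries at 6 h were below all 3 unmated ones. The level at 6 h was 0.331 times the unmated level (log2FC -1.60, SE 0.41, Benjamini-Hochberg adjusted p = 0.095). Within run 2 the log2 ratio of the means was -1.84, with 2 libraries at each time. At 24 h the run 1 library held 255 CPM and the run 2 libraries held 111 and 109 CPM. The mean at 24 h was therefore on either side of the unmated mean by run, with log2 ratios of 1.06 in run 1, from 1 library at each time, and -0.92 in run 2.

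The run 1 oviduct library at 24 h had a wide effect on the fit. Without it, Oamb at 6 h reached a Benjamini-Hochberg adjusted p of 0.00472 against unmated. Leaving out each oviduct library in turn gave 0.00472 to 0.502. That library also had more of several marker lists than the 2 run 2 libraries at 24 h. Neuronal markers summed to 118 CPM in it against 39.1 and 37.6 CPM in them, and haemocyte markers to 509 CPM against 261 and 262 CPM. The part of these cells in its receptor values was not tested. The neuronal and haemocyte markers of the oviduct at 6 h, at 20.4 to 23.7 CPM and 173 to 176 CPM, were likewise below the unmated 28.1 to 46.9 CPM and 300.0 to 329 CPM. Eggshell markers, which belong to the ovary, summed to 589 CPM in the 6 h library with 51.0 CPM of Oamb and 7.36 CPM in the other, against 1.56 to 4.18 CPM unmated. Without the library at 589 CPM the log2FC of Oamb at 6 h was -1.46 (SE 0.58, edgeR Benjamini-Hochberg adjusted p = 0.502), from a single 6 h library.

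**Figure D3:**
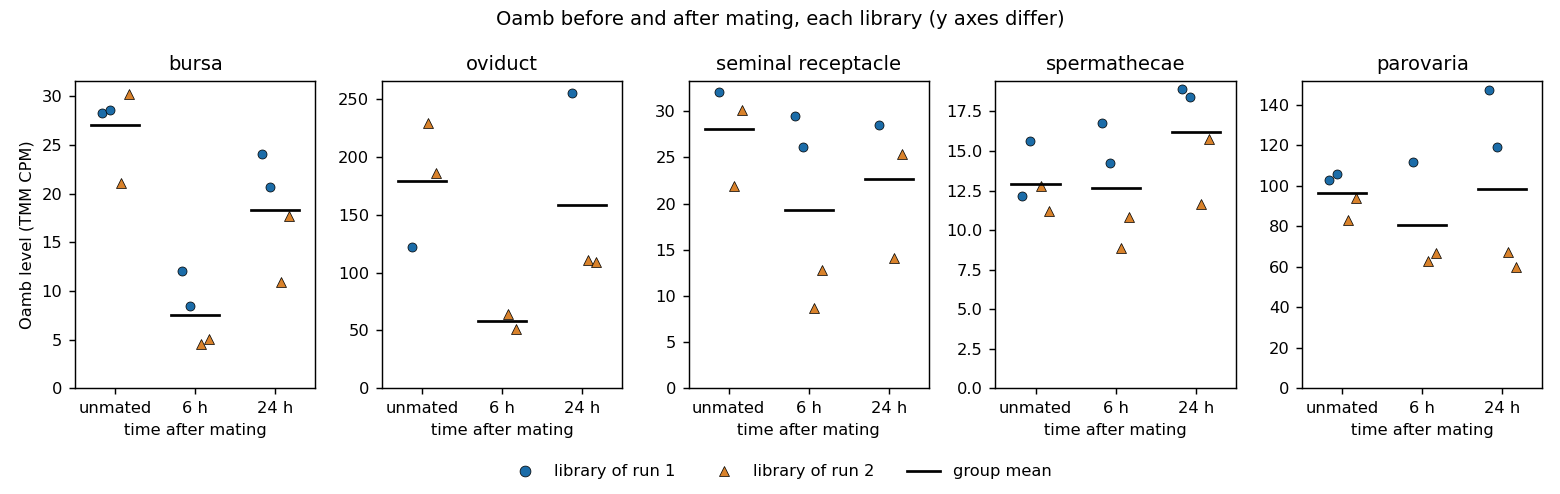
Oamb in each library of the 5 tract tissues, unmated and at 6 h and 24 h after mating, in CPM scaled by TMM on linear axes from 0. Circles are run 1 and triangles run 2 libraries, and the line is the mean. All 6 h libraries of the bursa (4.56 to 12.1 CPM) and oviduct (51.0 and 64.5 CPM) lay below all unmated ones, and the run 1 library of the oviduct at 24 h held 255 CPM.

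Oamb in the other tract tissues showed no difference between times beyond the spread. The seminal receptacle held 29.5 and 26.1 CPM in run 1 and 8.70 and 12.8 CPM in run 2 at 6 h, against 32.1 CPM in run 1 and 21.9 and 30.2 CPM in run 2 unmated (log2FC -0.53, SE 0.42, adjusted p = 0.763). By run, the log2 ratios were -0.21 and -1.28, and with the run as a covariate the log2FC was -0.81 (SE 0.31, Benjamini-Hochberg adjusted p = 0.182). The spermathecae had 8.85 to 16.8 CPM at 6 h and 11.2 to 15.6 CPM unmated, a log2FC of -0.03 (SE 0.20). The parovaria had 62.9 to 112 CPM at 6 h and 82.9 to 106 CPM unmated, a log2FC of -0.32 (SE 0.32). At 24 h the parovaria divided by run, with 147 and 119 CPM in run 1 and 67.3 and 60.04 CPM in run 2. The fat body held 0 to 0.873 CPM at 6 h and no count in either library at 24 h.

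A test of whether the 6 h log2FC differed among tissues, fitted over genes expressed in every tissue and with the fat body included, left out all 8 receptors. An alternative chosen after seeing this, over the 5 tract tissues and the genes expressed in any group, tested 5 receptors. Oamb was called (edgeR, Benjamini-Hochberg adjusted p = 0.034, where 5.18% of 8706 genes were called), and with the run as a covariate its adjusted p was 0.000491. Leaving out each unmated and 6 h library of the bursa and oviduct in turn moved it between 0.0118 and 0.085, with 6 of 13 at or under 0.05. The adjusted p was 0.11 for Octalpha2R and 0.857 or more for Octbeta1R, Octbeta2R and TyrR. For the 24 h log2FC no receptor was called, and the adjusted p of Oamb was 1.0, where 0.218% of genes were called.

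Octbeta2R was called at no time in any tissue. In the bursa it measured 23.5 and 14.2 CPM in run 1 and 43.0 and 38.0 CPM in run 2 at 6 h, against 38.2 and 38.3 CPM in run 1 and 50.6 and 39.2 CPM in run 2 unmated. On the TMM scale both 6 h libraries of run 1 were below both unmated ones, whereas in run 2 they overlapped. Before this scaling all libraries at 6 h (22.8 to 36.6 CPM) lay below all unmated ones (53.1 to 59.5 CPM), so the overlap depends on the scaling. With the TMM factors the log2 ratio was -1.02 in run 1 and -0.15 in run 2 (pooled log2FC -0.48, SE 0.31, adjusted p = 0.275). With the run as a covariate it was -0.56 (SE 0.25, edgeR Benjamini-Hochberg adjusted p = 0.0882). At 24 h the bursa held 30.3 to 49.96 CPM (log2FC 0.05, SE 0.31). In the seminal receptacle the 6 h libraries ran between 9.54 and 29.0 CPM and those at 24 h between 8.93 and 25.6 CPM, around the unmated 16.7 to 19.4 CPM. The oviduct had 6.96 and 6.73 CPM at 6 h against 5.77 to 11.6 CPM unmated (log2FC -0.42, SE 0.30). Both 6 h libraries were below the 3 of the oviduct at 24 h (7.15 to 10.2 CPM), with a log2FC of 0.36 (SE 0.30) for 24 h against 6 h. The spermathecae held 2.39 to 6.22 CPM at 6 h and 1.76 to 11.7 CPM at 24 h, against 4.39 to 7.55 CPM unmated, with log2FC of -0.25 (SE 0.50) and 0.42 (SE 0.50). Octbeta1R in the bursa was at 1.24 to 3.10 CPM at 6 h and 1.83 to 3.16 CPM at 24 h, beside 1.89 to 2.35 CPM unmated, with log2FC of 0.04 (SE 0.30) and 0.09 (SE 0.30).

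Octalpha2R in the oviduct measured 6.56 and 8.66 CPM at 6 h, against 4.27 CPM in run 1 and 5.81 and 7.56 CPM in run 2 unmated. At 24 h it held 45.4 CPM in the run 1 library, from 1756 counts, and 7.62 and 9.15 CPM in run 2. All 3 libraries at 24 h were above the 3 unmated ones. The log2FC at 24 h was 1.76 (SE 0.63, edgeR Benjamini-Hochberg adjusted p = 0.688), and 0.50 (SE 0.25) without the run 1 library, so that 1 library set most of its size. In the seminal receptacle the 6 h and 24 h log2FC were -0.52 (SE 0.39) and -0.20 (SE 0.43).

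TyrR in the bursa held 2.47 and 1.30 CPM in run 1 and 1.76 and 1.38 CPM in run 2 at 6 h, against 0.873 and 1.25 CPM in run 1 and 0.733 and 0.471 CPM in run 2 unmated. All 4 libraries at 6 h were above all 4 unmated ones, and the log2 ratio was 0.83 in run 1 and 1.39 in run 2. The fitted difference was 1.05 (SE 0.37, 2.07-fold, edgeR Benjamini-Hochberg adjusted p = 0.053) and did not pass the threshold. TyrR passed the filter on low values through its 6 h libraries alone, so it could enter the test only by being high there. The 6 h libraries were also above every unmated one in the oviduct (0.736 and 0.523 CPM against 0.236 to 0.346 CPM), the seminal receptacle (0.184 to 0.612 CPM against 0 to 0.144 CPM) and the spermathecae (0.234 to 0.607 CPM against 0 to 0.0834 CPM), where 5 to 24 counts stood behind each 6 h value and TyrR was too low to be tested. How many of all genes separate in this way was not counted, so no rise of TyrR in these tissues can be read from it. In the parovaria it had 3 counts in 1 of 3 libraries at 6 h and in 1 of 4 unmated libraries. At 24 h the bursa held 0.673 to 1.46 CPM, which overlapped both other times.

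**Figure D4:**
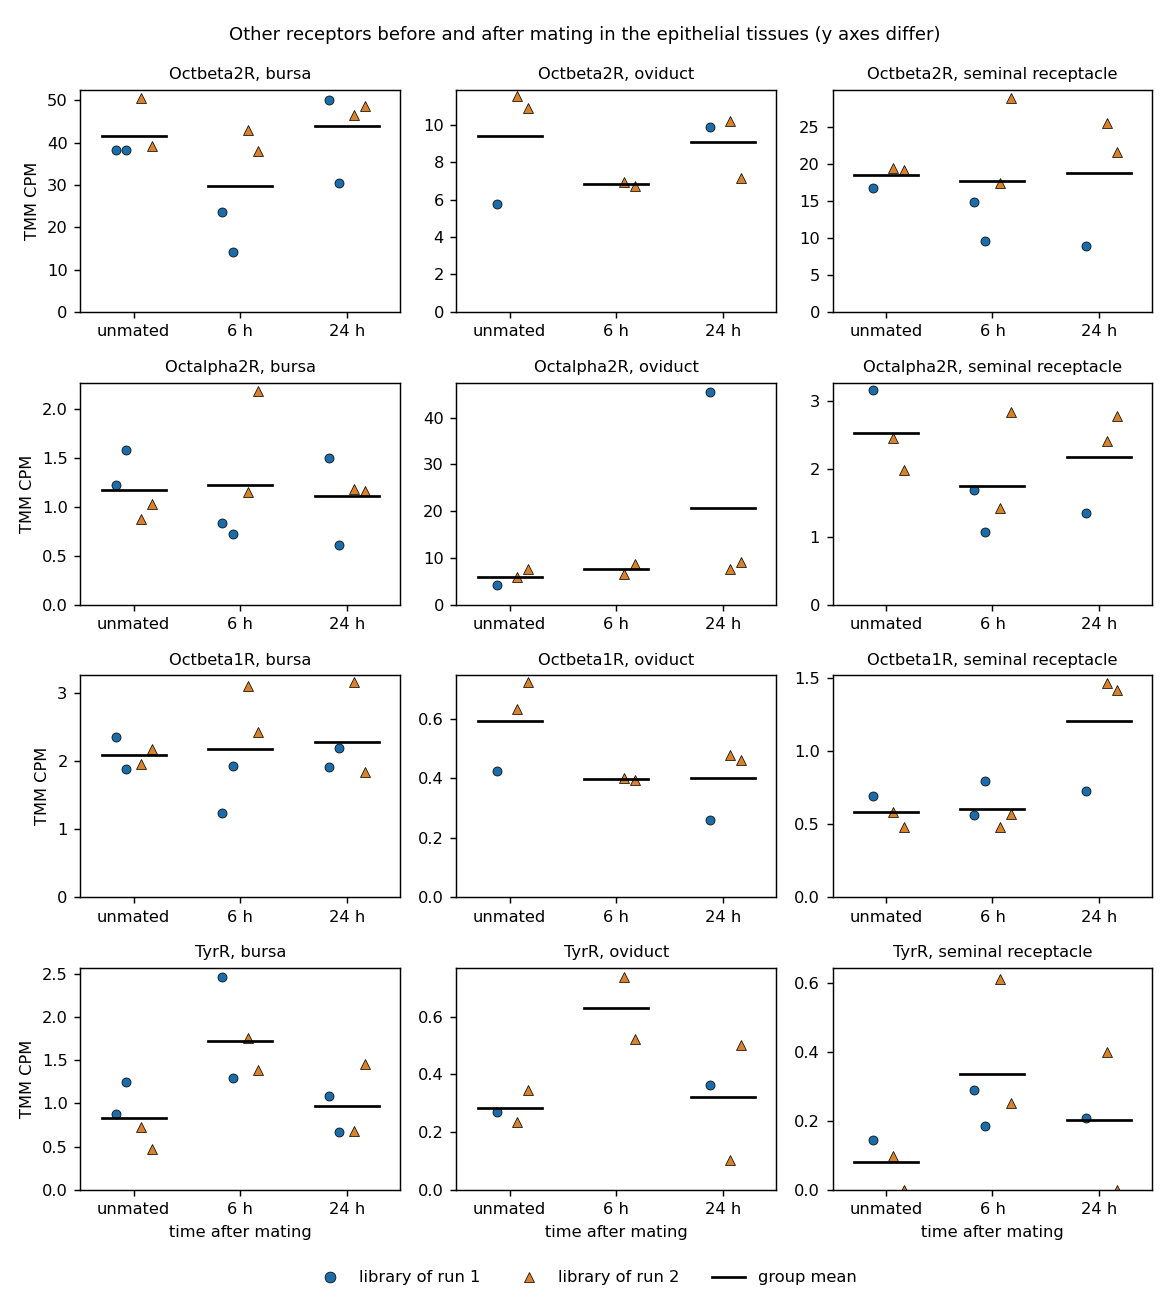
Octbeta2R, Octalpha2R, Octbeta1R and TyrR in each library of the bursa, oviduct and seminal receptacle, unmated and at 6 h and 24 h after mating, in CPM scaled by TMM. Circles are run 1 and triangles run 2 libraries. TyrR in the bursa was at 1.30 to 2.47 CPM at 6 h and 0.471 to 1.25 CPM unmated, and 1 library of the oviduct at 24 h held 45.4 CPM of Octalpha2R.

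The lowest receptors gave little to compare. Oct-TyrR in the seminal receptacle held 0.483, 0.266, 0.516 and 0.504 CPM at 6 h and 0.375, 0.801 and 0.910 CPM at 24 h, against 0.575, 0.517 and 0.748 CPM unmated. The 6 h libraries were all below the unmated ones, but the highest of them and the lowest unmated library held 16 counts each. Octbeta3R had 3 counts in 2 of the 4 bursa libraries at 6 h and none in the 4 at 24 h, against 3 counts in each of the 4 unmated. TyrRII in the bursa was at 0 to 0.247 CPM at 6 h and 0.140 to 0.499 CPM unmated.

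**Figure D5:**
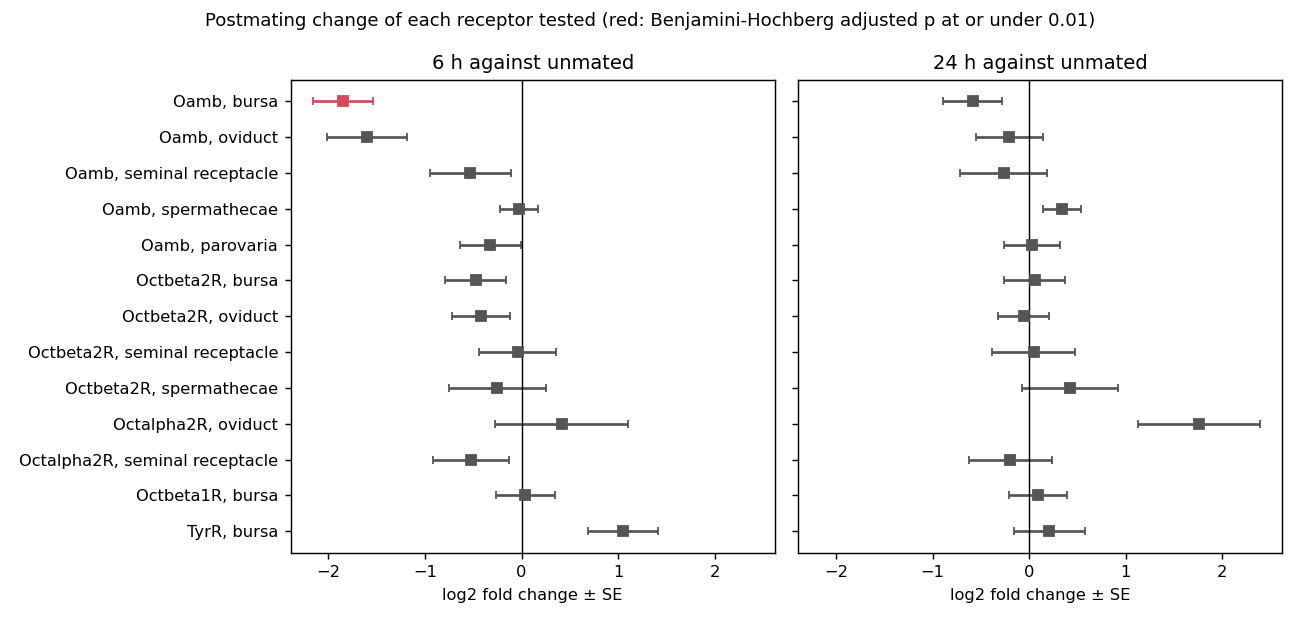
Log2 fold change with its standard error for the 13 receptor and tissue pairs tested, at 6 h against unmated (left) and 24 h against unmated (right). Oamb in the bursa at 6 h, drawn in red, was the pair with a Benjamini-Hochberg adjusted p ≤ 0.01 (log2FC -1.85), and 0 of 13 passed the Bonferroni threshold in either comparison.

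The enzymes and carriers that supply the amines were measured in the same libraries. Tdc1, the tyrosine decarboxylase of non-neuronal cells, held 53.0, 63.4 and 70.3 CPM (lowest, median and highest of 4) in the bursa at 6 h and 30.8, 38.4 and 41.5 CPM at 24 h, against 7.54, 10.1 and 11.8 CPM in unmated females. It rose at 6 h by 2.66 (SE 0.17, edgeR Bonferroni-adjusted p = 2.16e-05) and was still higher at 24 h by 1.90 (SE 0.17, Bonferroni-adjusted p = 0.000717). In the seminal receptacle it rose at 6 h by 2.93 (SE 0.24, Bonferroni-adjusted p = 0.00194), with 19.4 to 26.4 CPM against 2.51 to 3.46 CPM. The neuronal decarboxylase Tdc2 did not exceed 0.449 CPM in any library, and Tbh, which converts tyramine to octopamine, had 2 to 4 counts in total in 3 tissue groups, none in the other 15, and 15 counts in 1 whole-female library. Vmat loads monoamines into vesicles. In the bursa it fell at 6 h by 2.05 on the log2 scale (SE 0.20, Bonferroni-adjusted p = 0.0027), with 0.547 to 0.692 CPM against 2.26 to 2.72 CPM. It was higher at 24 h than at 6 h by 2.29 (SE 0.21, Bonferroni-adjusted p = 0.000895), with a mean of 3.01 CPM beside 2.52 CPM unmated. Before scaling, Vmat exceeded 2 CPM in all 4 unmated bursa libraries and all 4 at 24 h, and in none at 6 h. It passed the filter on low values through those times alone, so its direction in both comparisons was set by the filter. The Oamb mean in the bursa was also lowest at 6 h, but at 24 h it was still below its unmated mean. A link between these genes was not tested. The highest unmated levels of Vmat were in the oviduct, at 14.5 to 45.9 CPM.

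Among the lists of genes related to the receptors, 6 of 9 genes for amine synthesis, vesicle loading and inactivation were tested in the bursa at 6 h. Of these 2 rose (Tdc1 and Ddc, the dopa decarboxylase, by 1.84, SE 0.18, Bonferroni-adjusted p = 0.00265) and 1 fell (Vmat), with a list median of 1.29 beside -0.02 over all genes tested, of which 1.15% were called. The direction of Vmat was set by the filter, as given above. Of 12 receptors for dopamine, serotonin and acetylcholine, 1 was tested and not called by Bonferroni, mAChR-A (log2FC 2.57, SE 0.48, Benjamini-Hochberg adjusted p = 0.00248). With means of 0.696 CPM unmated, 4.2 CPM at 6 h and 1.02 CPM at 24 h, mAChR-A was too low unmated to pass the filter there. It could enter the test only by being higher after mating. None of 26 genes for signalling downstream of amine receptors was called by Bonferroni (median -0.21). By Benjamini-Hochberg 3 of them passed, beside 12.1% of all genes: the adenylyl cyclase genes rut (-1.31) and Ac13E (-1.39) were lower and the G-protein gene Galphai (0.65) was higher. Of 7 tested ovulation effectors 1 rose, the matrix metalloproteinase Mmp1, by 2.74 (SE 0.26, Bonferroni-adjusted p = 0.00174). In unmated epithelial tissues against glandular tissues, 4 of 6 genes for synthesis and loading were higher and none lower, among them Tdc1 by 3.96 (SE 0.42, adjusted p = 5.3e-08) and Vmat by 2.40 (SE 0.42, adjusted p = 4.02e-05). Of the signalling genes 19 of 26 were higher and 2 lower (median 1.28), beside 32.8% higher and 27.8% lower over all genes, including the ryanodine receptor RyR by 3.73 (SE 0.25, adjusted p = 2.9e-11).

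The genes most like each expressed receptor were found by Pearson correlation of log2(CPM + 0.5) over the 19 group means, among 9545 expressed genes, as a description. These means share libraries, runs and scaling, and the means of all tissues enter them. For Oamb they were tgo (r = 0.972), the partner subunit of several basic helix-loop-helix factors, CG10939 (r = 0.971) and chas (r = 0.962). For Octalpha2R they were CG33557 (r = 0.975), OtopLa (r = 0.959) and ana (r = 0.956). For Octbeta1R they were the phosphodiesterase gene Pde1c (r = 0.971), obst-E (r = 0.966) and Gal (r = 0.961). For Octbeta2R they were qsm (r = 0.984, Spearman's rho 0.995), which ranked first by each measure tried, Jhbp1 (r = 0.970) and a gene listed by its identifier alone, FBgn0263118 (r = 0.962). For TyrR they were Tsp42Ef (r = 0.955), CG13215 (r = 0.954) and CG14854 (r = 0.930). The ranks depended on the measure. By Spearman's rho Gal ranked 177 for its receptor, CG14854 157, Jhbp1 136 and OtopLa 71, and the other genes named ranked from 1 to 47. Between receptors, Octbeta1R and Octbeta2R were the most alike (r = 0.913, rho 0.972), while Oamb and Octbeta2R were less so (r = 0.476). All these correlations include the run 1 oviduct library at 24 h. The Octalpha2R mean of that group was 20.7 CPM with it and 8.39 CPM in the run 2 libraries.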

How the data were processed

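The authors pooled microdissected tissue, sequenced it as 50 bp single-end reads on a BGIseq-500, mapped reads with HISAT2 2.1.0 to the FlyBase r6.21 genome and counted them per gene with StringTie, which estimates counts from coverage. The table the authors deposited is named for CPM, but it holds whole-number counts that sum to a different total in each library, and these were used as raw counts. Strandedness of the libraries is not given in the sources used here. Column names gave the tissue, time and run of each library. For 14 columns the name gave the group but not the single sample. Whether replicate pools came from separate cultures is not stated, so p-values measure the spread between these samples. Identifiers were matched to symbols in the BDGP6.54 annotation, which has the same assembly (17624 of 17752 matched), and lengths are merged exons from it.

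A test took in the genes that exceeded 2 CPM in 2 or more libraries of any group it compared. Tests were edgeR 4.0.16 quasi-likelihood fits with TMM factors (R 4.3.3), per tissue and without covariates for the 3 comparisons of time points (Bonferroni-adjusted p ≤ 0.01) and for tissue against whole female (Bonferroni-adjusted p ≤ 0.001 and log2FC of at least 2). One fit of the unmated libraries gave the pairs of groups and the epithelial against glandular comparison (Benjamini-Hochberg adjusted p ≤ 0.05), and one fit of all tissues gave the differences among tissues. SE is the absolute log2FC divided by the square root of F. The biological coefficient of variation of the fits per tissue was 0.327 to 0.388. Where a group had no count, a bound was set at 3 counts over the group on the TMM scale, which covers counting error only and not the choice of scaling. The tests were checked on simulated counts before use. Alternatives used DESeq2 1.42.0, other scalings and filters, the run as a covariate, run 2 alone, the replicate number as a block, other fits and leaving out each library. Those that restrict the difference among tissues to the 5 tract tissues, and those that combine the run with a Benjamini-Hochberg adjustment, were added after the data were seen. Figures used Python 3.11.15 with numpy 2.4.6, pandas 2.3.3 and matplotlib 3.10.9.

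Replicate numbers were checked for pairing by the correlation of deviations from group means, with every pair over 0.1 required. For 24 h against 6 h this held in the bursa (0.164 to 0.775, 4 pairs) and the spermathecae (0.266 to 0.743, 4 pairs). The numbers run within the sequencing runs, so they share the difference between runs, and no other comparison with more than 1 pair met the rule. The fat body at 6 h against unmated (0.483) and the seminal receptacle at 24 h against 6 h (0.366) had 1 pair each and were not taken as paired.

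All 8 receptors are described. Of the other lists, called members were named by the largest change, up to 3 per comparison, with Tdc1, Tdc2, Tbh and Vmat always, and the 3 genes most correlated with each expressed receptor were named. The members and lists were chosen with earlier results of these data known. Of the lists, 1 of 10 genes for synthesis and 1 of 8 germline markers were not analysed here.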

Additional observations from a re-analysis of the deposited data

Results flagged for a closer look

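Octbeta2R in the 4 unmated bursa libraries had 1 value far from the others, 50.6 CPM in a run 2 library beside 38.2, 38.3 and 39.2 CPM, with a gap of 0.913 of the group's range. It was 1 of 23 receptor groups of 4 libraries that were looked at, and chance gives about 1 in 20 such groups. The 6 h difference of Oamb differed among the 5 tract tissues in the interaction test given above, with a Benjamini-Hochberg adjusted p of 0.034 from edgeR (F = 5.33).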

How the results depend on the processing

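For receptor calls at 6 h against unmated (0 of 13), Benjamini-Hochberg adjustment, DESeq2 and the run as a covariate with Benjamini-Hochberg gave 1 each, always Oamb in the bursa. At 24 h against 6 h (0 of 13) the last of these gave 1. Against the whole female (1 of 15) there were 9 calls by Benjamini-Hochberg, 10 by DESeq2, 2 with RLE factors, 5 in one fit of unmated libraries, and 0 by library size alone or in run 2 alone. Leaving out 1 library gave 0 to 1. Of 84 receptor pairs of unmated groups 72 were called, 42 by Bonferroni and 69 to 73 leaving out 1 library. The epithelial against glandular comparison (4 called) gave 2 by Bonferroni and 8 without a filter. For the difference of the 6 h change (0 called, no receptor tested), the 5 tract tissues gave 1, also with the run, and 0 to 1 leaving out 1 library. The direction turned for Oamb in the spermathecae against the whole female by library size alone (-0.0378). It also turned for Octbeta2R in the parovaria against the whole female: -0.0073 with DESeq2, -0.00547 with RLE factors, -1.67 by library size alone, -0.11 without a filter, -0.0818 in one fit and -0.0309 to 0.137 leaving out 1 library, against 0.0299 as reported. Of the other values of single receptors under the alternatives, 473 kept their direction and side of the threshold, 26 gained and 11 lost it.

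With the replicate number as a block, which could be fitted for 6, 10 and 6 of the 13 pairs, 0 receptors were called at 6 h against unmated, 24 h against unmated or 24 h against 6 h. Oamb in the bursa at 6 h had -1.93 under it (Benjamini-Hochberg adjusted p = 0.000116 from edgeR). Outside the 2 comparisons of 24 h with 6 h that met the rule for pairing, the numbers were not taken to pair libraries. Same-numbered deviations there correlated at 0.0425 to 0.599 in the bursa, -0.0139 to 0.554 in the spermathecae, -0.237 to 0.284 in the parovaria and -0.112 to -0.0585 in the oviduct. Depth limits what can be said of Octbeta3R, Oct-TyrR and TyrRII, with at most 28 counts in a library, and 2 or 3 libraries a group in the oviduct and 2 of the whole female limit the tests that use them. The cause of the changes under other settings was not tested.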
